A study of Brassica rapa subsp. rapa with 9 samples.

Results

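UV-B was set against darkness in the storage organ of a turnip, on the 3 arrays that, by their titles, carried UV-B-exposed material, of 9 arrays in all. The plant was Brassica rapa subsp. rapa, red-skinned, of the cultivar Tsuda, and the organ was the swollen hypocotyl, from which a surface layer of about 1 to 2 mm was peeled. Exposed organs received UV-B for 24 h and the controls were kept dark. UV-A and blue light, given for 24 h as well, had 3 arrays each and are used here only for comparison. On each array the polyA RNA of the exposed sample carried Cy3 and that of a dark sample Cy5. Per the series' design text each replicate was a separate biological sample drawn from over 5 plants, and the labels give no plant age. Values are log2(UV-B/dark), positive where the RNA was higher in UV-B. Since the dyes were never swapped, each value also holds any dye bias of its probe, and the authors' additional arrays that compared dark RNA with itself are not analysed here.

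Plants read UV-B with the receptor UVR8, which switches on light-signalling genes and, through them, flavonoid synthesis, while stronger UV-B also damages DNA, produces reactive oxygen and calls up wound and pathogen defence proteins. In a red turnip, the skin makes anthocyanin where light reaches it, by way of phenylalanine ammonia-lyase, chalcone synthase and the enzymes that follow. Turnip, like other crucifers, stores glucosinolates, sulphur-rich defence compounds that the enzyme myrosinase splits when tissue is broken.

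The spotted cDNA clones formed 2507 probes. Of these, 2110 carry the name of their best Arabidopsis match (999 names), 262 are named after genes of other organisms, 123 had no match and 12 carried no annotation. A name can cover several turnip genes, and 352 names were on 2 or more probes. Where 1 probe stands for a name, it is the brightest over the 9 arrays. The light channel of UV-B replicates 1 and 2 was the weakest of the 9 arrays: its median foreground was 3.57 and 4.35 times the background against 16.5 times on replicate 3. Log ratios of the UV-B arrays correlated across probes at 0.678, 0.772 and 0.573 for replicates 1 and 2, 1 and 3, and 2 and 3, where probes are not independent replicates. Before normalization, duplicate spots of a probe correlated at 0.656 on replicate 2, against 0.905 and 0.889 on replicates 1 and 3. On replicate 3, 99.3% of the 135 spots without a clone were above background in the light channel, against 2.96% and 2.22% on replicates 1 and 2. A light signal above background on replicate 3 therefore does not separate a probe from such a spot.

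Tissue markers were few. The epidermis list held CER3 alone, which the patterns also placed among the proteasome and ubiquitin names, so it may not mark epidermis. Its light signal was above background on 1 of 3 arrays (log2 -0.19). LHCB2.1 of green cells had 0.62, the phloem gene ATPP2-A14 had 0.15 and the myrosinase gene TGG1 had 0.80, and none of these passed the test. No probe name matched the xylem or DNA repair lists. PIP1B and PIP3, which also serve as the root and storage organ list, fell. In bulk RNA, fewer cells of a type and less RNA per cell cannot be told apart.

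In UV-B, 620 of 2507 probes (24.7%) passed limma's test against darkness (Benjamini-Hochberg adjusted p under 0.05), of which 272 rose (10.8%) and 348 fell (13.9%). Among the 999 names, 130 rose (13%) and 111 fell (11.1%), 24.1% in all. Among called probes falls were larger than rises: 121 fell by over 2 on the log2 scale and 32 rose by over 2. Names on several probes count more than once here: PRXR1 alone had 24 of the 348 falls and AT3G14210 had 22. Changes of this size were not counted by name. The median of the calls was 1.30 for rises and -1.75 for falls, and the extremes were 4.51 and -4.92. All 3 arrays lay on one side of 0 for 604 of the called probes. The balance of directions depended on the source of values, with 418 higher and 344 lower in the authors' processed table. Without UV-B replicate 1, 2 or 3 the total was 329, 545 and 271. The adjusted p was 0.0498 for the last probe inside the threshold and 0.0508 for the first outside.

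Of the genes with the largest rises, ATCDC5, annotated as a DNA-binding transcription factor, had log2 values of 4.71, 3.62 and 5.21 on replicates 1, 2 and 3. It rose 22.8-fold (log2 4.51 ± 0.299 SE, n = 3, adjusted p = 7.56e-06 in limma), and all 3 arrays were far above 0. AT3G05940, of unknown function in the annotation, had 2.85, 3.51 and 2.90 and rose 8.49-fold (adjusted p = 2.8e-05). AT5G63780, an annotated ubiquitin ligase that would tag proteins for breakdown, had 2.36, 2.56 and 2.38, the closest set among the large rises. AT1G51720, an annotated oxidoreductase, was the least even. It had 2.89 and 3.91 on replicates 1 and 3 but 0.36 on replicate 2, and its call was lost without UV-B replicate 1 or 3 (adjusted p = 0.145 and 0.235).

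The largest fall among names was that of AT2G01520, an unknown protein in the annotation, with values of -4.55, -3.42 and -5.55. It fell by 4.51 ± 0.377 on the log2 scale (22.7-fold lower, adjusted p = 1.91e-05). AT2G39960, an annotated signal peptidase, had -3.81, -2.77 and -5.42, but its light signal was above background on 1 of 3 arrays, so its size is uncertain. Without replicate 2 or 3 it had -4.62 and -3.29. ARAC9, annotated as GTP-binding, had -3.15, -3.16 and -4.90. AT4G27830, an annotated glycosidase, had -3.82, -3.26 and -3.73, a narrow range for so large a fall. RALFL22, of a family of small secreted signalling peptides, had -3.21, -2.51 and -3.66. AT2G39310 and AT1G70850, both unknown proteins in the annotation, had -3.19, -3.29 and -3.66, and -3.08, -2.75 and -2.78. AGP21, an arabinogalactan protein of the cell surface, ranged from -1.86 to -4.65, and without UV-B replicate 1 or 3 its mean was -3.86 and -2.46.

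**Figure D1:**
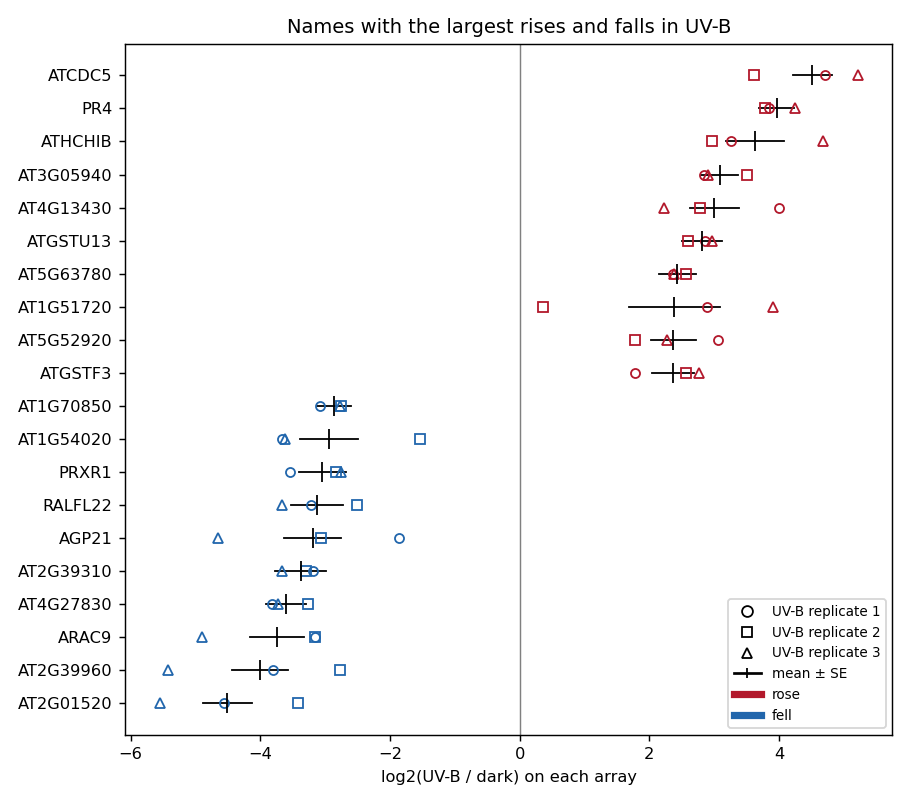
Log2(UV-B/dark) on each of the 3 UV-B arrays (circle, square and triangle for replicates 1, 2 and 3; horizontal axis) for the 10 names with the largest rise (red) and the 10 with the largest fall (blue), 1 probe each, with the mean as a tick and its standard error as a bar. The probe drawn is the brightest of a name that passed in that direction with all 3 arrays on one side of 0. ATCDC5 lies between 3.62 and 5.21 and AT2G01520 between -5.55 and -3.42, while AT1G51720 reaches down to 0.36 on replicate 2.

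Defence proteins gave 2 of the 3 largest rises. PR4, a pathogenesis-related protein, had log2 values of 3.85, 3.79 and 4.25 and rose 15.6-fold (log2 3.96 ± 0.268 SE, adjusted p = 7.56e-06). Its other, dimmer probe had 0.31, -1.27 and -0.60 and did not pass. ATHCHIB, a basic chitinase that breaks down fungal cell walls, had 3.25, 2.97 and 4.67 and rose 12.4-fold (adjusted p = 0.000221). ATHCHIB rose on 4 of its 5 probes, with 0.03 on the other. Both had saturated spots in the light channel, so their folds are not exact. Of 7 defence names these 2 rose and none fell on the brightest probe, with 2 lower at an unadjusted p under 0.05. By that count 28.6% were called, near the 24.1% of all names. The median of the list was -0.34, below the 0.145 of all names.

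A further defence gene is singled out here after its values were seen. ATOSM34, osmotin of the thaumatin-like antifungal proteins, has 10 probes. The brightest had -0.34 and did not pass, but 8 of the others rose, by 1.23 to 2.51. The last had -0.46. Without UV-B replicates 1, 2 and 3 the rises were 4, 6 and 3. In contrast, 2 of 3 probes of the plant defensin LCR69/PDF2.2 fell (-2.61 and -2.26), as did 1 of 3 of AT2G43590, an annotated chitinase (-1.06), whose call was lost without any 1 UV-B array. The probes of the list were 27, of which 13 rose and 3 fell. Counted by the brightest probe of each of the 7 names, the list had 2 rises and 2 falls without UV-B replicate 2.

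Of 7 glutathione transferases, which couple glutathione to reactive or toxic compounds, 2 rose and none fell (none at an unadjusted p under 0.05 either). That is 28.6% called, near the 24.1% of all names. ATGSTU13 had 2.86, 2.59 and 2.97 and rose 7-fold (log2 2.81 ± 0.305 SE, adjusted p = 0.000114). ATGSTF3 had 1.78, 2.56 and 2.76 on its brightest probe, and its other probe rose too, by 2.86. The 13 probes of ATGSTF9 behaved differently: none passed, and they lay between -1.17 and 0.05. ATGSTF12, which in Arabidopsis carries anthocyanin to the vacuole, had -0.53 ± 0.282 and did not pass.

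Other redox proteins numbered 40, of which 9 rose and 3 fell, with a median of 0.38. This was 30% called against 24.1% of all names. CSD1, the cytosolic copper-zinc superoxide dismutase, had 1.98, 1.85 and 3.15 and rose 5.01-fold (adjusted p = 0.00035). A second CSD1 probe rose by 1.87, and a dim one had 0.02. APX1, the cytosolic ascorbate peroxidase that removes hydrogen peroxide, rose on both its probes (1.33 and 1.72), and AT4G12290, a copper-binding protein, rose by 1.76. Those that fell were ADS2 and AT3G61580, desaturases of lipids rather than antioxidants, and DIN11. The authors' processed values gave 17 rises and 4 falls. The count depended on single arrays, with 5 rises and 3 falls without UV-B replicate 1, and 3 and 3 without replicate 3.

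Peroxidases of the secreted class were 6 names, of which 1 rose and 1 fell. PRXR1 had -3.54, -2.83 and -2.75 and fell by 3.04 ± 0.366 on the log2 scale (adjusted p = 0.000189). AT3G49110 rose by 0.88 ± 0.294 (adjusted p = 0.0477) but its call was lost without UV-B replicate 1 or 3, without any 1 UV-A array and without blue light replicate 1 or 2 (adjusted p at most 0.272), as well as with the authors' values (0.0746).

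At the entry of the pigment pathway 1 gene rose. PAL1, phenylalanine ammonia-lyase, the first step from phenylalanine towards lignin and flavonoids, had 1.12, 1.71 and 2.20 and rose 3.19-fold (log2 1.67 ± 0.273 SE, adjusted p = 0.00132). CYP98A3 and ATOMT1, further along the branch to lignin, had 0.68 and -0.09 and did not pass. Of 5 flavonoid names 1 rose and none fell on the brightest probe, with 1 lower at an unadjusted p under 0.05. F3H, flavanone 3-hydroxylase, had 1.58, 0.27 and 1.05 and rose 1.95-fold (adjusted p = 0.0356), although this call was lost without UV-B replicate 1 or 3 (adjusted p = 0.255 and 0.149) or UV-A replicate 1 or 3 (0.0582 and 0.0527).

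CHS, chalcone synthase, the entry enzyme of the flavonoid branch, has 7 probes. Its brightest had 0.21, 0.03 and 1.23 and did not pass (0.49 ± 0.448). Among the others 4 rose, by 1.10, 1.34, 1.44 and 2.31, and in each of these replicate 3 was the highest array. Without UV-B replicates 1, 2 and 3 the CHS probes that rose were 1, 3 and 0. The remaining pair had 0.63 and -0.08 and did not pass. LDOX and DFR, the late steps towards anthocyanin, did not pass on any probe. LDOX had -0.86, 0.68 and -0.49 on its 3 probes. DFR had -0.05 and 0.33. With the replicate block the brightest LDOX probe fell (adjusted p = 0.0331) and another rose.

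Glucosinolate genes moved in both directions, and 6 of 7 passed. MAM1, methylthioalkylmalate synthase of side-chain elongation, had -1.52, -2.07 and -4.19 and fell by 2.59 ± 0.581 (log2, adjusted p = 0.00736). Its call was lost without UV-B replicate 3 (-1.79, adjusted p = 0.0908). MAM-L, its near relative, fell on 4 of 5 probes, by 1.61 to 3.58, and near-identical copies of these synthases may share signal. Without UV-B replicate 3, 2 of the MAM-L probes fell. CYP83A1, which acts on aldoximes from methionine, had -2.23, -2.77 and -1.88. AT2G43100, which in Arabidopsis encodes a small subunit of isopropylmalate isomerase, had -1.59, -1.70 and -2.15, a fall of 1.82 ± 0.355.

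AT4G13430, annotated as a hydro-lyase and in Arabidopsis the large subunit of the same isomerase, went the other way. It had 3.99, 2.78 and 2.22 and rose 8-fold (log2 3.00 ± 0.377 SE, adjusted p = 0.000243). SUR1, the C-S lyase of the core pathway, had 1.02, 1.31 and 1.35, with its call lost without UV-B replicate 1, 2 or 3 (adjusted p at most 0.114). CYP83B1, which acts on indole aldoximes, had 0.23 and did not pass. The list's median was -1.70 against 0.145 for all names, and 2 names rose while 4 fell. With the median over each name's probes in place of the brightest, the list's median was -0.21, as CYP83A1 then stood at -0.21. In UV-A and blue light MAM1 had -3.40 and -2.75 and AT2G43100 had -2.64 and -2.17, and neither passed the test of UV-B against UV-A (adjusted p = 0.585 and 0.33). That test was made without the replicate block.

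On the myrosinase side, ESP, which directs myrosinase products to nitriles, had 1.20, 1.33 and 1.28, and a second probe rose by 1.81, but the first call was lost without UV-B replicate 3 (adjusted p = 0.0542). MBP1, a myrosinase-binding protein, had -2.12, -0.49 and -2.68 on its brightest probe, and that call was lost without UV-B replicate 1 or 3 (0.124 and 0.184). TGG1, myrosinase itself, had 0.80 and -0.43 on its probes, the first called a rise with the replicate block (adjusted p = 0.0198), and MBP2 had no probe that passed. Sulphur assimilation, which feeds glucosinolates and glutathione, had no brightest probe past the threshold among 6 names in limma, with 1 higher at an unadjusted p under 0.05. Its brightest member RML1, the first enzyme of glutathione synthesis, had 0.36, 0.94 and 0.48 and did not pass. The list's 21 probes held 5 that rose.

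Water channels fell on every probe. PIP1B had -1.96, -1.49 and -1.79, a 3.36-fold fall (adjusted p = 0.000587), and its other probe fell by 1.57. PIP3 had -1.76, -2.02 and -2.49, a 4.26-fold fall (adjusted p = 0.00111). Both are plasma membrane aquaporins that let water cross between cells. The calls of the brightest probes held without any 1 UV-B array, and that of the second PIP1B probe was lost without replicate 1 or 2.

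**Figure D2:**
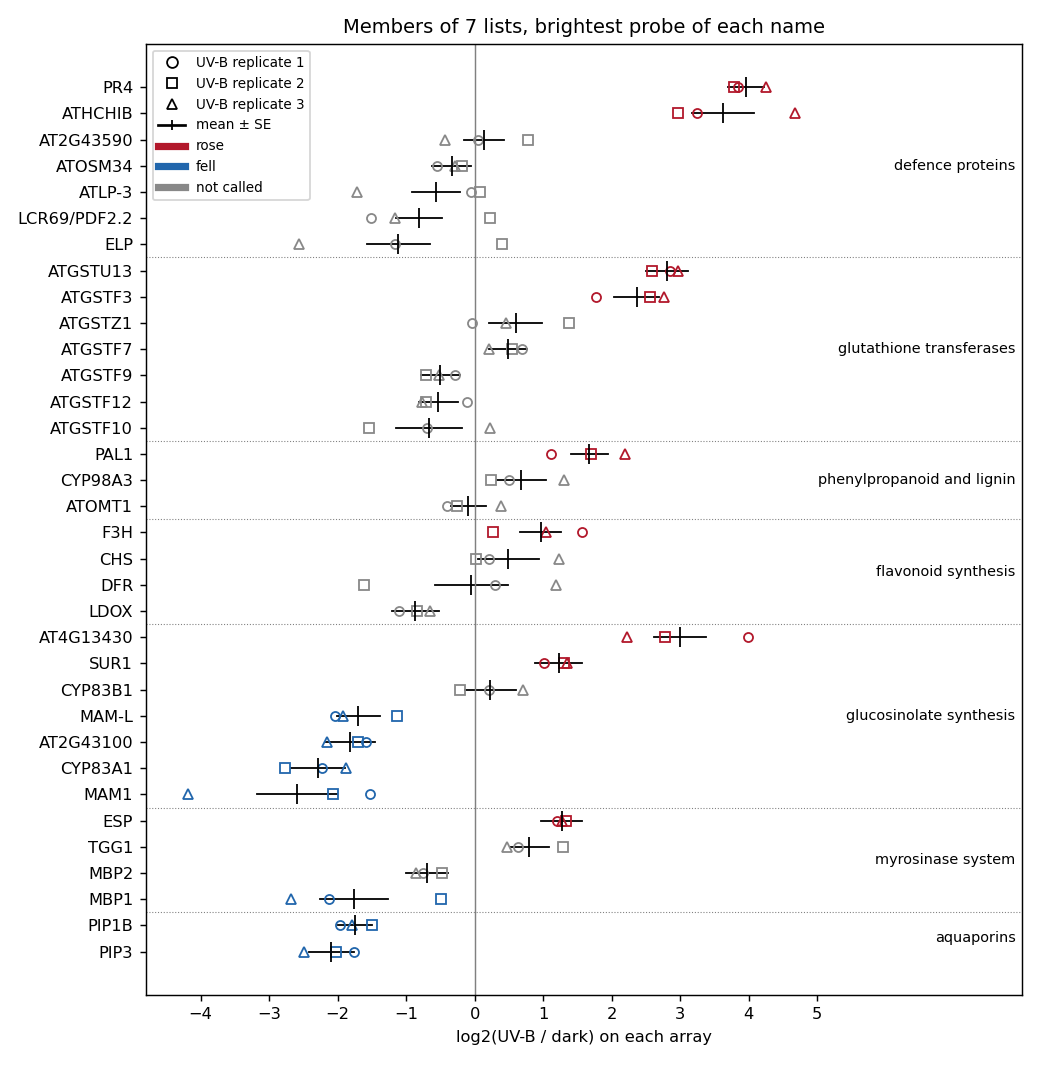
Log2(UV-B/dark) on each UV-B array (symbols by replicate, horizontal axis) for the members of 7 lists, brightest probe of each name, with mean and standard error; red rose, blue fell, grey did not pass. ATGSTF12, a member of the flavonoid list too, is drawn with the glutathione transferases. PR4 and ATHCHIB stand far right of the other defence names, and the glucosinolate names split into AT4G13430 and SUR1 on the right and 4 names between -2.59 and -1.70 on the left.

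Ester hydrolases had a median of -1.54 by the brightest probe and -0.52 with the median over each name's probes. Of 9 names 5 fell and 1 rose. AT3G14210 had -2.35, -1.58 and -2.72 and fell by 2.22 ± 0.371 (log2, adjusted p = 0.00154). AT1G67830 had -2.11, 0.03 and -3.37, so replicate 2 stood apart, and its call was lost without UV-B replicate 1 or 3 (adjusted p = 0.104 and 0.179). AT4G01130 rose by 0.91 ± 0.272, a call lost without UV-B replicate 1 or 3 and without UV-A replicate 1 (at most 0.199). Without replicate 1 none rose and 4 fell, and without replicate 3 none rose and 2 fell.

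Cell wall names numbered 46, of which 9 fell and 2 rose, with a median of -0.27. The share called, 23.9%, was near the 24.1% of all names. AT4G27830 and AT5G42100, both annotated glycosidases, led the falls, AT5G42100 with -3.19, -2.07 and -2.99. EXGT-A1, which cuts and rejoins xyloglucan, had -1.30, -3.32 and -3.74, with its light signal above background on 1 of 3 arrays, and its other 2 probes had -0.02 and 0.08. ATXTH17, of the same enzyme family, rose by 0.77 ± 0.247 on its brightest probe and AT3G23640, an annotated glycosidase, by 1.42 ± 0.371. These 2 rises were lost without UV-B replicate 1 or 3 (at most 0.136), ATXTH17 also without replicate 2 (0.156), without any 1 UV-A array and without blue light replicate 2. Of the 9 probes of ATXTH17, 2 rose and 1 fell (-1.05). The counts were 4 falls without replicate 1 and 3 without replicate 3, with no rises in either. With the replicate block 14 fell and 4 rose.

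Of 20 lipid names 6 fell and 1 rose, 35% called against 24.1% of all names, with a median of -0.42. ADS2, an acyl desaturase, had -2.24, -2.36 and -2.06 and fell by 2.22 ± 0.431. FAB1, a condensing enzyme of plastid fatty acid synthesis, had -2.14, -0.68 and -1.95, and its call was lost without UV-B replicate 1 or 3 (adjusted p = 0.059 and 0.053). AT5G55410, an annotated lipid-binding protein, rose by 1.35 ± 0.294, lost without UV-B replicate 3 (0.0518). The list had 3 falls without replicate 1 and 2 without replicate 3.

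Among 7 names linked to abscisic acid, cold or drought, 2 fell and none rose (none at an unadjusted p under 0.05 either), with a median of -0.67. The called share of 28.6% was near the 24.1% of all names. The dehydrin ERD14 had -1.76, -0.08 and -1.89 and RCI2B, a small membrane protein of the cold response, had -1.67, -0.60 and -2.20. The second probe of each also fell. Both calls were lost without UV-B replicate 1 or 3 (adjusted p at most 0.278), ERD14 also without UV-A replicate 1 or 3 or blue light replicate 1 or 2.

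The 4 dark-induced, dormancy and senescence names gave 2 falls and 1 rise. DRM1, a dormancy-associated gene, had -1.02, -1.32 and -2.44, and 6 of its 11 probes fell, 3 without UV-B replicate 3. DIN11, a gene of dark-grown tissue in Arabidopsis, had -0.98, -1.47 and -1.48, and 5 of its 25 probes fell. SAG21, a late-embryogenesis-like protein of senescence and stress, rose by 0.88 ± 0.269. Without UV-B replicate 3 none of the 3 passed (adjusted p = 0.0964, 0.0958 and 0.0778), without replicate 2 only DRM1 did, and SAG21 also lost its call without UV-B replicate 1 or UV-A replicate 1.

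Translation factors, 16 names, gave 6 rises and 1 fall (43.8% called against 24.1% of all names), median 0.47. AT1G07920, an elongation factor, had 1.59, 1.59 and 1.71 and rose 3.09-fold (log2 1.63 ± 0.261 SE, adjusted p = 0.00122). AT2G45030, another elongation factor, rose by 1.45 ± 0.274, and TIF3H1 of the initiation complex by 1.24 ± 0.304. EIF3C of the same complex fell by 0.88 ± 0.265, and the calls of TIF3H1 and EIF3C were lost without UV-B replicate 1 or 3 (at most 0.166). The list had 2 rises without UV-B replicate 1, 3 without replicate 2 and 4 without replicate 3.

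Of ribosomal constituents 3 of 74 rose and 3 fell, 8.11% against 24.1% of all names, with a median of 0.05. AT2G36160 (-2.11, -3.44 and -1.87) and AT4G02230 (-2.01, -1.86 and -2.53) fell and AT2G33800 (1.27, 2.64 and 1.81) and AT3G06320 (1.02, 1.63 and 1.35) rose, on all 3 arrays. AT1G66580 had -1.45, 0.16 and -3.14, and its fall was lost without UV-B replicate 1 or 3, any 1 UV-A array or blue light replicate 1 (adjusted p at most 0.409). AT4G36130 rose by 0.93 ± 0.261, a call lost without any 1 UV-B array (at most 0.0993).

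Of 31 proteasome and ubiquitin names 6 rose and 1 fell, with a median of 0.50 and 25 values above 0. The share called, 22.6%, was near the 24.1% of all names. RPT4A, an ATPase of the proteasome's regulatory particle, had 2.37, 2.02 and 1.95 and rose 4.33-fold (adjusted p = 0.00132). UBC20, a ubiquitin-conjugating enzyme, had 2.20, 0.89 and 1.64. UBP24, which removes ubiquitin, had -2.74, -1.22 and -1.71 and was the 1 to fall. With the authors' values 13 rose and 1 fell. The list had 4 rises and 1 fall without UV-B replicate 1 and without replicate 3. Among 25 peptidases and inhibitors 3 rose and 5 fell, 32% called against 24.1% of all names. Without UV-B replicate 1 these counts were 1 and 4, and without replicate 3 they were 2 and 3. The subtilases TPP2 and AT4G20430 went in opposite directions, TPP2 with 2.14, 1.95 and 1.49 and AT4G20430 with -2.04, -1.09 and -2.32.

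Glycolysis gave 3 rises and 1 fall of 9, 44.4% called against 24.1% of all names. AT3G52930, fructose-bisphosphate aldolase, had 1.45, 2.14 and 1.92 and rose on all 5 of its probes, by 1.08 to 1.92, and on 2 of them without UV-B replicate 3. AT5G52920, pyruvate kinase, had 3.07, 1.77 and 2.28 and rose 5.18-fold, but its 3 other, dimmer probes had -0.17 to 0.01. GAPC, glyceraldehyde-3-phosphate dehydrogenase, rose by 1.21 ± 0.337, a call lost without UV-B replicate 2 or 3 (0.119 and 0.143). PGK, phosphoglycerate kinase, fell on both probes, with -2.53, -0.38 and -1.99 on the brightest, which lost its call without UV-B replicate 1 or 3 (0.113 and 0.0895). PDC2, pyruvate decarboxylase of alcoholic fermentation and no member of the list, rose on both its probes (1.45 and 2.05), on 1 of them without UV-B replicate 1, a name picked after its values were seen.

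Sugar and starch genes had 2 rises and 1 fall of 9, 33.3% called against 24.1% of all names. ATTPS1, trehalose-6-phosphate synthase, had 1.66, 0.78 and 1.71. G6PD1, which feeds the pentose phosphate pathway, rose by 1.06 ± 0.303, lost without UV-B replicate 1 or 3 (0.11 and 0.2). SEX1, which starts starch breakdown by phosphorylating the granule, fell by 1.65 ± 0.376, lost without UV-B replicate 3 (0.0734). Of its 5 probes another rose by 0.93, and the median was -0.13.

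ACO1, which in this annotation carries no description, was the 1 rise of 6 ethylene and jasmonate names. It had 1.77, 0.40 and 1.39 on the brightest probe, a call lost without UV-B replicate 1 or 3 (0.199 and 0.149), and 4 of its 9 probes rose, none of them without UV-B replicate 1 or 3. With the replicate block 7 rose. All 9 were above 0, and on each of them replicate 2 was the lowest of the 3 arrays.

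Both named light receptors stayed close to 0. UVR8, the UV-B receptor, had -0.22, 0.54 and -0.28 (0.01 ± 0.258, adjusted p = 0.984), and PHOT1, a blue light receptor, had 0.37 ± 0.319. Neither passed in limma, at an adjusted or an unadjusted p under 0.05. The single auxin name, AT2G17500, an annotated auxin transporter, had 0.34 ± 0.289. RCA, rubisco activase, rose by 0.87 ± 0.26, 1 of 3 photosynthesis names, with its call lost without any 1 UV-B array or UV-A replicate 1 (at most 0.129).

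Among 32 transcription factor names 3 rose and 2 fell, 15.6% called against 24.1% of all names. ANAC019, a stress-related NAC factor in Arabidopsis, had 1.02, 1.63 and 1.12. AT5G48560, an annotated DNA-binding factor, had -2.35, -1.05 and -2.71. AT4G23800 rose by 0.91 ± 0.285 and ATHB16 fell by 1.16 ± 0.389, and each lost its call without at least 4 of the single arrays, with an adjusted p of up to 0.287.

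Kinases, phosphatases and GTPases, 106 names, rose 16 times and fell 13 times, 27.4% called with a median of 0.17, near the 24.1% and 0.145 of all names. The pattern also took in names of other kinds, among them RALFL22, TCH4 of the cell wall list, and TUB2 and TUB3 of the cytoskeleton list. CIPK17, a kinase of calcium signalling, had 1.97, 1.01 and 3.12. SAR1, which the pattern placed here but the annotation describes as a synaptobrevin-related protein of vesicle traffic, had -2.57, -2.23 and -3.39. Neither of its 2 dimmer probes passed, at 0.52 and 0.71. Without UV-B replicate 1 the list had 5 rises and 8 falls, and without replicate 3 it had 7 and 9.

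Of 57 transporters 8 rose and 7 fell, 26.3% called, near the 24.1% of all names. KUP5, a potassium transporter, had 2.96, 2.52 and 1.46, and AT5G08690, an ATP synthase subunit, ranged from 1.24 to 2.47. NRAMP3, which moves iron and manganese out of the vacuole, had -2.35, -2.31 and -2.36, the tightest of the named falls, with its light signal above background on 2 of 3 arrays. Without UV-B replicate 1 there were 4 rises and 5 falls, and without replicate 3 there were 2 and 5.

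Of 15 cytoskeleton names 2 rose and 2 fell, 26.7% called, near the 24.1% of all names. TUA3, an alpha-tubulin, had 1.14, 1.28 and 2.28 and ACT8, an actin, had 0.83, 1.24 and 1.21. TUB6 and TUB8, beta-tubulins, fell by 1.92 ± 0.374 and 1.19 ± 0.27. ACT8 lost its call without UV-B replicate 2 or 3 (0.0617 and 0.089) and TUB8 without replicate 1 or 3 (0.0663 and 0.0704). Tubulins are a family of near copies, so their probes may share signal. Of 10 chaperones 1 rose and 1 fell, the isomerases PAS1 (2.21, 2.45 and 1.58) and AT3G44600 (-2.18, -1.69 and -1.96). Together they were 20% of the list, near the 24.1% of all names.

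**Figure D3:**
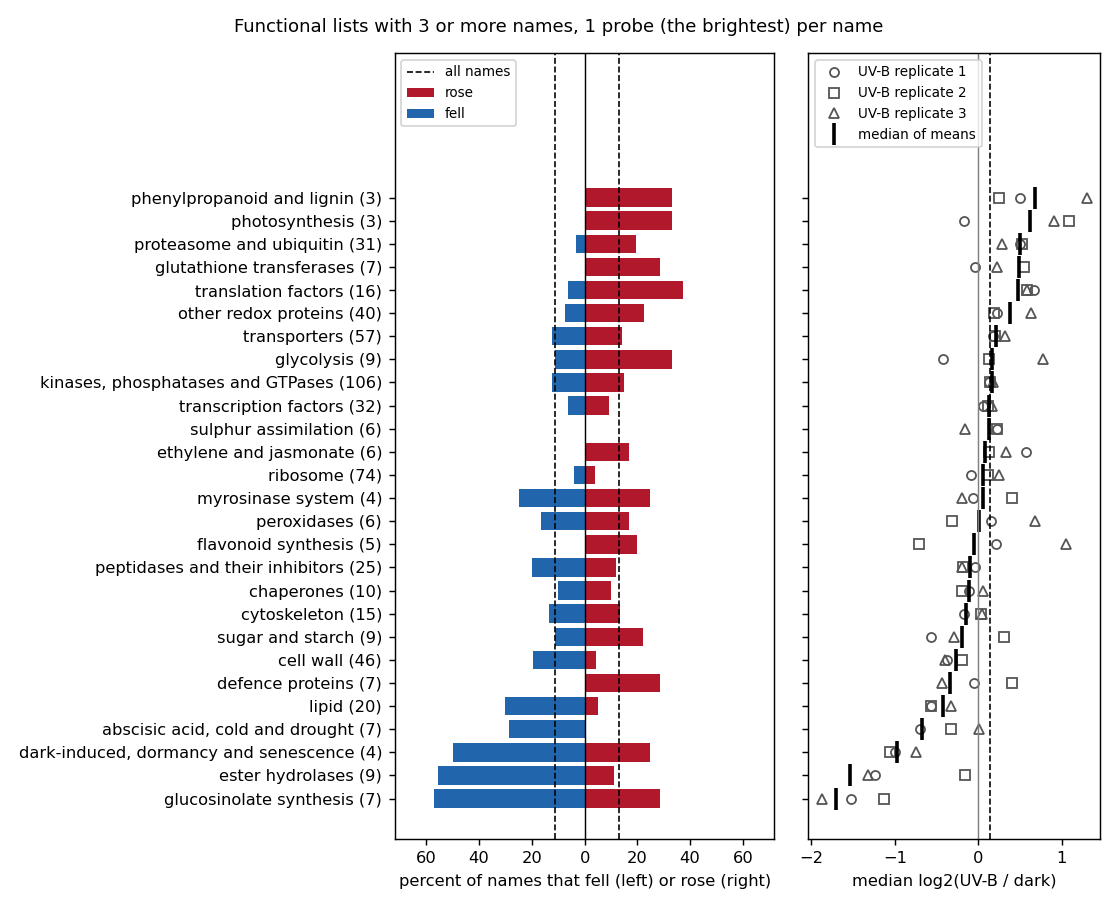
Left, percent of names of each functional list that fell (blue, to the left) or rose (red, to the right) in UV-B against darkness, with dashed lines at 13% rises and 11.1% falls for all 999 names; the number of names is in parentheses. Right, median log2(UV-B/dark) over the names of a list on each array (symbols) and of the means (bar), with a dashed line at 0.145 for all names. Only lists of 3 or more names are drawn, and among these glucosinolate synthesis (-1.70) and ester hydrolases (-1.54) have the lowest medians by the brightest probe. Lists of 3 to 7 names rest on few genes.

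Names with several probes allow each call to be set against other clones. Of 352 such names, on 1463 probes, 165 (46.9%) had all probes on one side of 0, 88 above and 77 below. Among the 86 names with at least 5 probes, 18 (20.9%) did. The spread of log2 values between probes of a name had an SD of 0.816, against 1.10 over all these probes. Of 75 names with at least 2 called probes, 62 had calls in 1 direction and 13 held a rise and a fall. All probes rose for 8 names and all fell for 5. Besides AT3G52930, APX1, ATGSTF3 and PDC2, the rises were of AT1G72020, AT3G12800, AT3G24100 and AT4G20150, and besides ERD14, PGK, PIP1B and RCI2B the falls were of AT5G14920.

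The 10 names with the most probes differed in how far their probes went together. PRXR1 was the most uniform: 24 of 29 probes fell, none rose and all 29 lay below 0, with a median of -2.37. AT3G14210 fell on 22 of 28 probes and rose on 1, between -4.06 and 1.39. AT1G54020, an annotated ester hydrolase with the most probes, fell on 19 of 33 and rose on 1, with a median of -1.66 and a range from -3.95 to 1.02. Its brightest probe had -0.97 and did not pass, so that it counts as not called in its list, while its brightest probe that passed had -3.67, -1.54 and -3.62.

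GAPC rose on 15 of 28 probes and none fell, with a median of 1.12, and 9 rose without UV-B replicate 3. AT4G10280, which carried 13 probes, rose on 3. DIN11 fell on 5 of 25 and CWLP, a cell wall-plasma membrane linker protein, on 6 of 18, with medians of -0.51 and -0.85. LP1, a lipid transfer protein, had no call on 15 probes, at -1.34 to 0.28.

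AT1G72290, an annotated endopeptidase inhibitor, was the most divided: 6 of 31 probes rose, 2 fell and the median was 0.07, with 1 probe at 3.62. Its brightest probe had 0.95, 1.05 and 1.57 and lost its call without any 1 UV-B array (at most 0.161) and with the authors' values (0.0756). CYP83A1 fell on 6 of 19 probes and rose on 1, with a median of -0.21, far from the -2.29 of its brightest probe. XTH9 (12 probes, 1 rose and 4 fell) and AT1G62480 (11 probes, 1 rose and 5 fell) were further names with calls both ways.

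In AT2G01520 the probes fell apart by signal. The 5 brightest of its 9 probes fell, with values from -4.92 to -3.41, and the 4 dimmest, had -0.67 to 0.15 and did not pass. AT5G52920 and SAR1 had the same order, with a call on the brightest probe alone. The part of signal strength in this was not tested.

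**Figure D4:**
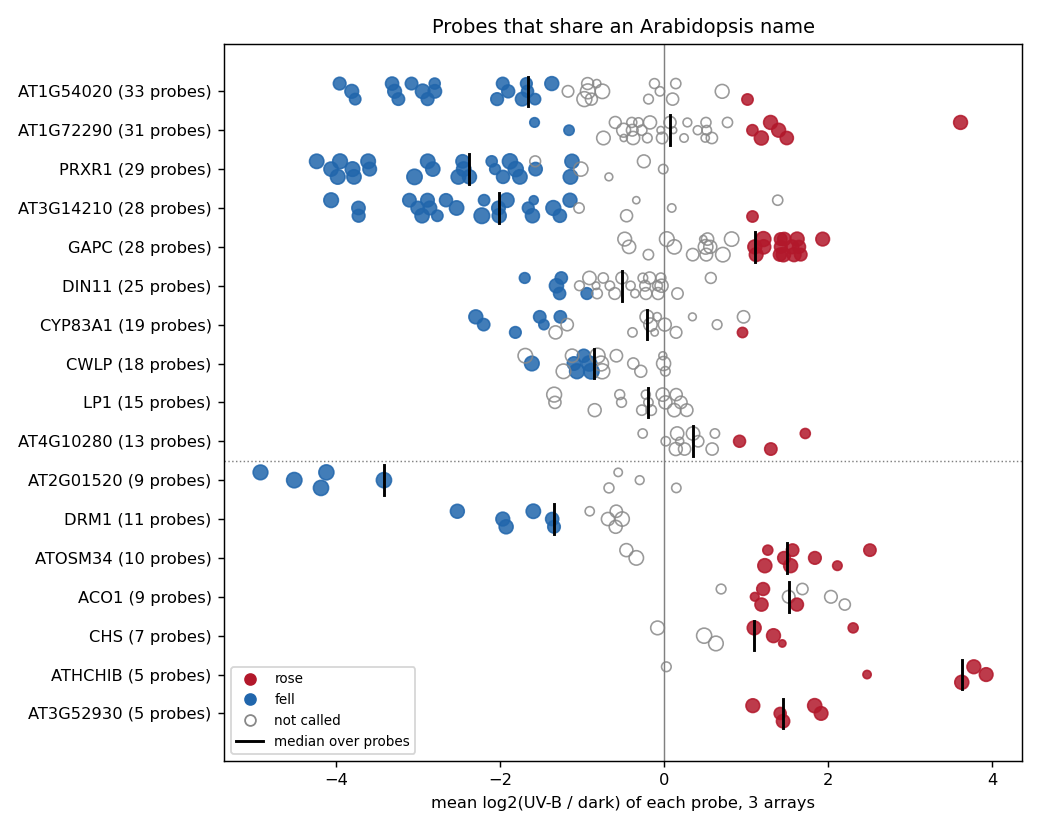
Mean log2(UV-B/dark) over 3 arrays (horizontal axis) of every probe of 17 names, the 10 with the most probes above the dotted line and 7 further names described in the text below it. Filled red and blue circles rose and fell, open grey ones did not pass, larger circles are brighter probes, and the black bar is the median over probes. PRXR1 lies wholly below 0 and AT3G52930 wholly above, whereas AT2G01520 splits into 5 bright probes at -3.41 or lower and 4 dim ones near 0.

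UV-B was next set against the other lights by the difference of their log ratios, in which a dye bias common to all arrays cancels. UV-B differed from UV-A for 166 probes (6.62%), 51 higher and 115 lower, and from blue light for 460 (18.3%), 202 higher and 258 lower. Replicate numbers paired the arrays, and with the replicate block the counts were 378 and 723. The UV-A count was 97 and 99 without UV-B replicates 1 and 3, 95 and 75 when UV-A replicates 1 and 3 were left out, and 278 without blue light replicate 3. The blue light count was 235 and 218 without UV-B replicates 1 and 3, and 282 without blue light replicate 3. Of the 620 probes called against darkness, 151 also differed from UV-A and 341 from blue light.

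Relative to both lights at once, 57 of 999 names differed in 1 direction (5.71%), 21 higher and 36 lower in UV-B. ATCDC5 was at 0.63 in UV-A and 0.71 in blue light, 3.88 ± 0.423 and 3.80 ± 0.423 below its UV-B value. ATHCHIB had 0.37 and 0.10 there. ATGSTU13, AT4G13430 and PAS1 had negative means in both other lights. These names were chosen for the size of their differences, so the values only describe them. PAS1, an isomerase of the FKBP type, was 2.88 ± 0.479 above UV-A. The difference of ATHCHIB from UV-A was lost without UV-A replicate 3 (adjusted p = 0.0522).

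Lower in UV-B than in both lights were AT2G01520 (difference from UV-A -4.96 ± 0.533), ARAC9, AT4G27830, AT5G42100 and SAR1. All 5 had means above 0 in UV-A and in blue light and -2.73 or lower in UV-B. Among the lists, both aquaporins were lower in UV-B than in each other light, where PIP1B had 0.84 and 0.55 and PIP3 had 0.85 and 0.50. ERD14 was so too, at 1.86 in UV-A and 1.53 in blue light against -1.24 in UV-B (adjusted p of the differences 0.00737 and 0.00951). PAL1 was higher in UV-B than in blue light (adjusted p = 0.0349) and did not pass against UV-A (0.289). F3H, with 1.69 in UV-A and 0.26 in blue light, passed neither test of the difference (0.311 and 0.258). These tests of single genes left the pairing of the arrays out, and more probes passed with the replicate block.

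**Figure D5:**
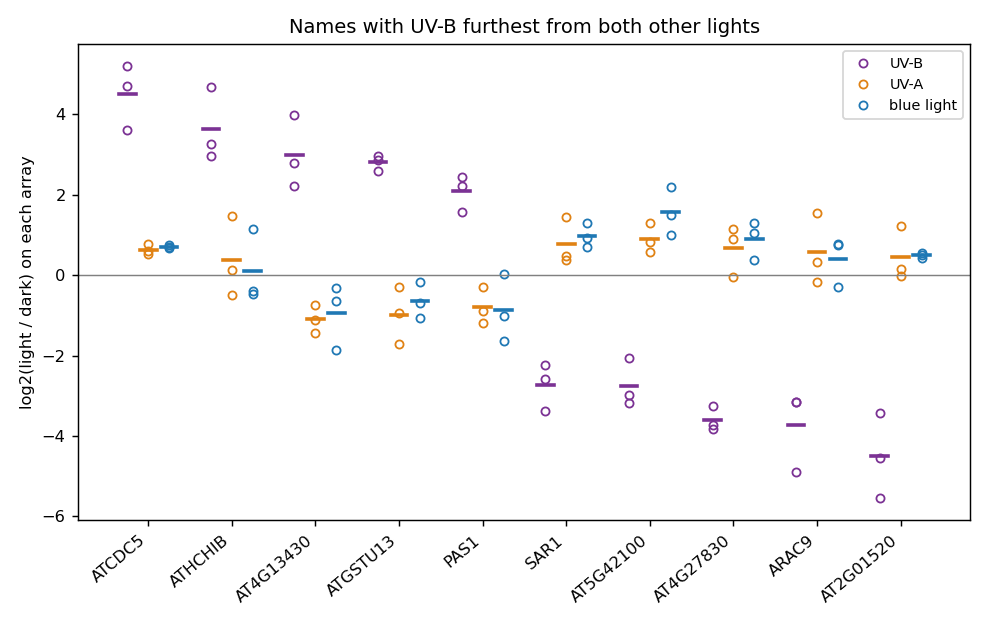
Log2(light/dark) on each array (circles; vertical axis) and its mean (bar) in UV-B, UV-A and blue light for the 5 names highest and the 5 lowest in UV-B relative to both other lights. The UV-B arrays of ATCDC5 lie between 3.62 and 5.21 with means of 0.63 and 0.71 in the other lights, and those of AT2G01520 between -5.55 and -3.42 with means of 0.45 and 0.49.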

How the data were processed

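Per the labels' protocols, arrays of spotted cDNA clones were hybridised with polyA RNA labelled by a dendrimer kit. The deposited text files give foreground and background intensity values per spot and channel, on a linear scale. They also give a deposited weight score of 0 or 1, whose meaning the sources used here leave unstated. Scanner, software and clone sequences are likewise unstated there. The authors' processed table holds log2 values whose normalization is not stated. Against the intensities its columns correlate with the opposite sign, dark over light. It was turned (r of 0.929 to 0.960 on the UV-B arrays) and served as an alternative. Groups come from the titles, since the description names blue light for every sample.

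Of 6272 spots, 135 held no clone and 972 had weight 0. The 5300 spots of weight 1 were used. Background was corrected by normexp (offset 50) and log ratios were normalized by loess within each array, in R 4.3.3 with limma 3.58.1. Log ratios were averaged over the spots sharing a probe ID. To be tested, a probe needed a foreground 1.5 times background in 1 channel on at least 3 arrays, which removed none. That filter says little about signal. Spots without a clone passed the same cut in the light channel on the arrays numbered 3, at 99.3% in blue light, 79.3% in UV-A and 99.3% in UV-B. Signal over background and the number of arrays limit the precision. One model with a mean per light over 9 arrays gave moderated two-sided tests, UV-B against 0 and UV-B against each other light, with Benjamini-Hochberg adjustment over all 2507 probes and a threshold of 0.05. Adjusted p-values are limma's and n is 3 arrays per light. The spread of the dark samples enters only through the ratios. The fit was tested on simulated data with noise drawn independently for each array. That test does not cover the deviation shared by same-numbered arrays, described below.

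Deviations of same-numbered arrays from their light's mean correlated in every pair (0.105 to 0.622), so replicate numbers paired the arrays. The numbers come from the titles. The replicate block takes this shared deviation out of the spread, but a mean against dark still holds it, so such p-values tend to be too small. Alternatives were plain subtraction, print-tip loess, median centring, ignored weights, a strict filter, no saturated spots, UV-B arrays alone, the block, the authors' values with and without it, and each UV-B array left out. Leaving out each array of the other lights was added after seeing the data.

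Members, lists and tests were chosen with earlier results of these data known. The 30 lists are patterns over names. After the annotation was read, 3 lists and single names were added and 36 members removed. Named were the 10 largest rises and falls, up to 3 passing names per list and direction (or the brightest member where none passed), the 10 names with the most probes, up to 6 with calls both ways, and the 5 highest and 5 lowest relative to both other lights. Further list members were named after their values were seen. One transporter that met the rule is not reported here. The available turnip gene table could not be joined to these names, and no coordinates or sequences are given. Tables and plots used Python 3.11.15, pandas 2.3.3 and matplotlib 3.10.9.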

Additional observations from a re-analysis of the deposited data

Results flagged for a closer look

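For 10 names the UV-B change differed from those in UV-A and in blue light, by limma's test of the difference itself. As log2 differences from UV-A and from blue light, ATCDC5 had 3.88 and 3.80, AT4G13430 had 4.10 and 3.93, ATGSTU13 had 3.79 and 3.45, ATHCHIB had 3.26 and 3.53 and PAS1 had 2.88 and 2.95. On the low side AT2G01520 had -4.96 and -5.001, ARAC9 had -4.30 and -4.14, AT4G27830 had -4.27 and -4.52, AT5G42100 had -3.65 and -4.31 and SAR1 had -3.50 and -3.71. Adjusted p-values were between 0.000194 and 0.00888. These names were chosen for the size of these differences, so the values describe them. Each difference passed in the 17 or 18 alternatives that gave it a value, except that of ATHCHIB from UV-A, which was lost without UV-A replicate 3 (adjusted p = 0.0522).

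Spots without a clone gave light signal above background on UV-B replicate 3, at 99.3% of 135 such spots, against 2.96% and 2.22% on replicates 1 and 2. The arrays numbered 3 of UV-A and blue light had 79.3% and 99.3%.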

How the results depend on the processing

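Of 92 named genes called in UV-B, none was called in the opposite direction in any alternative. The UV-B mean is unchanged by the replicate block, by UV-B arrays alone and by leaving out another light's array. No reversal was possible in those fits. The 10 largest rises and falls were chosen with all 3 arrays on one side of 0, so leaving out a UV-B array could not reverse them. The strict filter held 81 of the 92. The replicate block kept 92, the authors' values 88, plain subtraction 91, print-tip loess and ignored weights 89 each, median centring 87 and the UV-B arrays alone 76. Without UV-B replicates 1, 2 and 3, fits with fewer samples kept 66, 81 and 57, and without 1 array of another light 81 to 92. The block ended none of these 92 calls, while LDOX and TGG1 gained one. With the replicate block 821 probes passed against darkness (360 higher and 461 lower), and with the authors' values and block 1069 (589 higher and 480 lower). The authors' values alone gave 418 higher and 344 lower, and the strict filter 273 and 270, so the excess of falls turned in these 3. Leaving out 1 of the 9 arrays gave 271 to 737 in all, 110 to 339 higher and 161 to 398 lower. Against UV-A the count of 166 was 378 with the block, 260 with the authors' values, 623 with both and 75 to 278 with 1 array left out. Against blue light the count of 460 was 723 with the block, 937 with the authors' values and block, and 218 to 460 with 1 array left out. The authors' values differ from the intensities in their normalization, and the cause of the shift was not tested. Taking the median over a name's probes in place of the brightest moved the list medians of glucosinolate synthesis from -1.70 to -0.21, ester hydrolases from -1.54 to -0.52 and dark-induced names from -0.97 to -0.57, and turned flavonoid synthesis from -0.05 to 0.14 and peptidases from -0.10 to 0.07. Weak light signal limits the large falls, since 10 named falls had a light signal not above background on at least 1 UV-B array.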

Other observations

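Some changed probes carry no informative Arabidopsis name. Of the 123 probes with no match, 262 named after other organisms and 12 without annotation, 33 rose and 51 fell in UV-B. Over all 2507 probes 272 rose (10.8%) and 348 fell (13.9%). A further 44 that rose and 66 that fell are annotated as unknown proteins, a class whose size is not given here. These counts are not read as a result about such probes. Signal at the ceiling of the scanner on at least 1 spot touched 58 of the 620 called probes.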
